A study of Rattus norvegicus with 2 samples.

Results

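The cytosolic ribosomal protein genes of the rat were followed in RNA sequenced from urine. A gene was taken as a member when its entry carried a number-only NCBI gene ID, its RefSeq symbol was Rpl or Rps with a number (and, where present, a letter, l or x), Rplp0 to Rplp2 or Rpsa, and its type was protein coding. By this rule 75 of 15940 protein-coding genes were members, 46 of the large and 29 of the small subunit. Urine came from Sprague Dawley rats operated on at 8 weeks of age and studied 2 weeks later, and 1 library was made per group. In the group labelled UUO (unilateral ureteral obstruction) the right ureter was tied, which scars the kidney. In the group labelled WT, the sham rats, the same operation was done without the tie. According to the study's methods, urine was drawn in both groups through a catheter in the ureter. The sources used here do not give the number of rats behind each library.

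With 1 library per group there is no replicate spread to set a difference against, and no p-value was computed. Each value below describes these 2 libraries, and no difference has a replicate check. Levels are FPKM (fragment counts corrected for transcript length and for library size), as given by the authors. The table calls its conditions UrRf and Urc, which were read as UUO and WT. The names alone do not settle this, and all directions given here depend on it. Steps in the values of assembled features gave normalising totals of about 2096000 fragments for WT and 2440000 for UUO. On a transcript of 500 bases, 1 fragment was then worth an FPKM of about 1.27 in WT and 1.26 in UUO, and the 3 fragments taken as the limit of detection 3.81 and 3.79. Detection was still not alike, as 49.8% of protein-coding genes were listed at 0 in WT urine and 25.1% in UUO urine. This limits the reading of zeros and low values in WT. Of urothelium markers, Upk1a, Upk1b, Upk2, Upk3a, Krt20 and Psca were above 0 in both libraries, as were all 10 kidney tubule markers, Umod and Aqp2 among them.

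A ribosome joins a large and a small subunit, each made of ribosomal RNA and many different proteins. The small subunit reads the mRNA, and the large subunit links the amino acids. Most of these proteins are present in about equal number in a ribosome, and their mRNAs are abundant in nearly all growing cells. Many of these mRNAs begin with a 5′ TOP (terminal oligopyrimidine) tract, an unbroken run of C and U at the cap, through which mTOR signalling sets how much they are translated. The genes are also known for many processed copies scattered over mammalian genomes, which resemble the spliced mRNA.

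The TOP tract is a feature that the choice of members did not use. RefSeq sequence around the annotated start (build GRCr8) was available for 60 of the 75 members. An unbroken run of at least 6 C or T that touched the 10 bases around the start was found in 41 of these 60 (68.3%), against 17.2% of the 13048 protein-coding genes with such sequence. The share was 68.4% for the large and 68.2% for the small subunit, so the subunits were alike in this. Runs of 10 or more were present in 51.7% of members and 4.18% of all genes. Mitochondrial ribosomal proteins, which work in another compartment, had the run in 16.1%, and translation factors in 26.8%. Other mRNAs known for a TOP tract had it in 69.2%, a share as high as that of the members. The windows below hold 15 bases before and 15 from the annotated start, 5′ to 3′ on the gene's strand, with the run in capitals. The first 8 belong to the members with the highest mean levels within each subunit for which sequence was available and that are described here. The last 3 belong to members with large differences between the libraries.
Rpl41 (chr7:1563483-1563512, minus strand): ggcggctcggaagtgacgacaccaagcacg
Rplp0 (chr12:46718376-46718405, minus strand): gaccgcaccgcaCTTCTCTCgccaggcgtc
Rpl3 (chr7:113507976-113508005, minus strand): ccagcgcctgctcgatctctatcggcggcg
Rpl23 (chr10:83272170-83272199, minus strand): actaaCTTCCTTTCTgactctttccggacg
Rps14 (chr18:56498245-56498274, plus strand): cccttccgTCTCTCTCTTTCCggtggagga
Rpsa (chr8:128728864-128728893, plus strand): cctttccgcgctaccctggaacgggtccgt
Rps7 (chr6:50999431-50999460, minus strand): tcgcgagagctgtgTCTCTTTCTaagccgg
Rps3a (chr2:173827028-173827057, minus strand): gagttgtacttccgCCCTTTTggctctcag
Rplp1 (chr8:71290858-71290887, minus strand): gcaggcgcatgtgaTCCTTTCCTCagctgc
Rps24 (chr16:96502-96531, plus strand): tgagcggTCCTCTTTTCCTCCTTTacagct
Rps27 (chr2:177964592-177964621, minus strand): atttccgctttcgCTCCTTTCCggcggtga

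Of these, Rpl41, Rpl3 and Rpsa held no run of that length in the searched bases. This says only that the letters were not in that window at the annotated start.

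Ribosomal protein mRNAs ranked high in UUO urine and, for the large subunit, in WT urine too. The median member stood at percentile 91.7 of all protein-coding genes in WT and at percentile 96.3 in UUO urine. For the large subunit these were 93.7 and 98.7. For the small subunit they were 57.8 and 94.2, with 12 of its 29 genes listed at 0 in WT urine. The members held 5.25% of the summed FPKM of protein-coding genes in WT and 6.18% in UUO urine. These shares depend on what else is in the sum. In it, 11 red-cell genes held 3223 of 336078 in WT and 89035 of 265259 in UUO urine. Without the 10 highest genes of each library the members' shares were 3.78% and 6.30%. An FPKM of 100 or more was reached by 28 members in WT and 33 in UUO urine. The highest member in both was Rpl41, which encodes a very short large-subunit protein (chromosome 7, 2946335 to 2947605 in the table), at 2418 in WT and 3375 in UUO urine. FPKM of so short an mRNA depends strongly on the length correction. In bulk urine RNA, fewer cells of a type and less RNA per cell cannot be told apart.

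**Figure D1:**
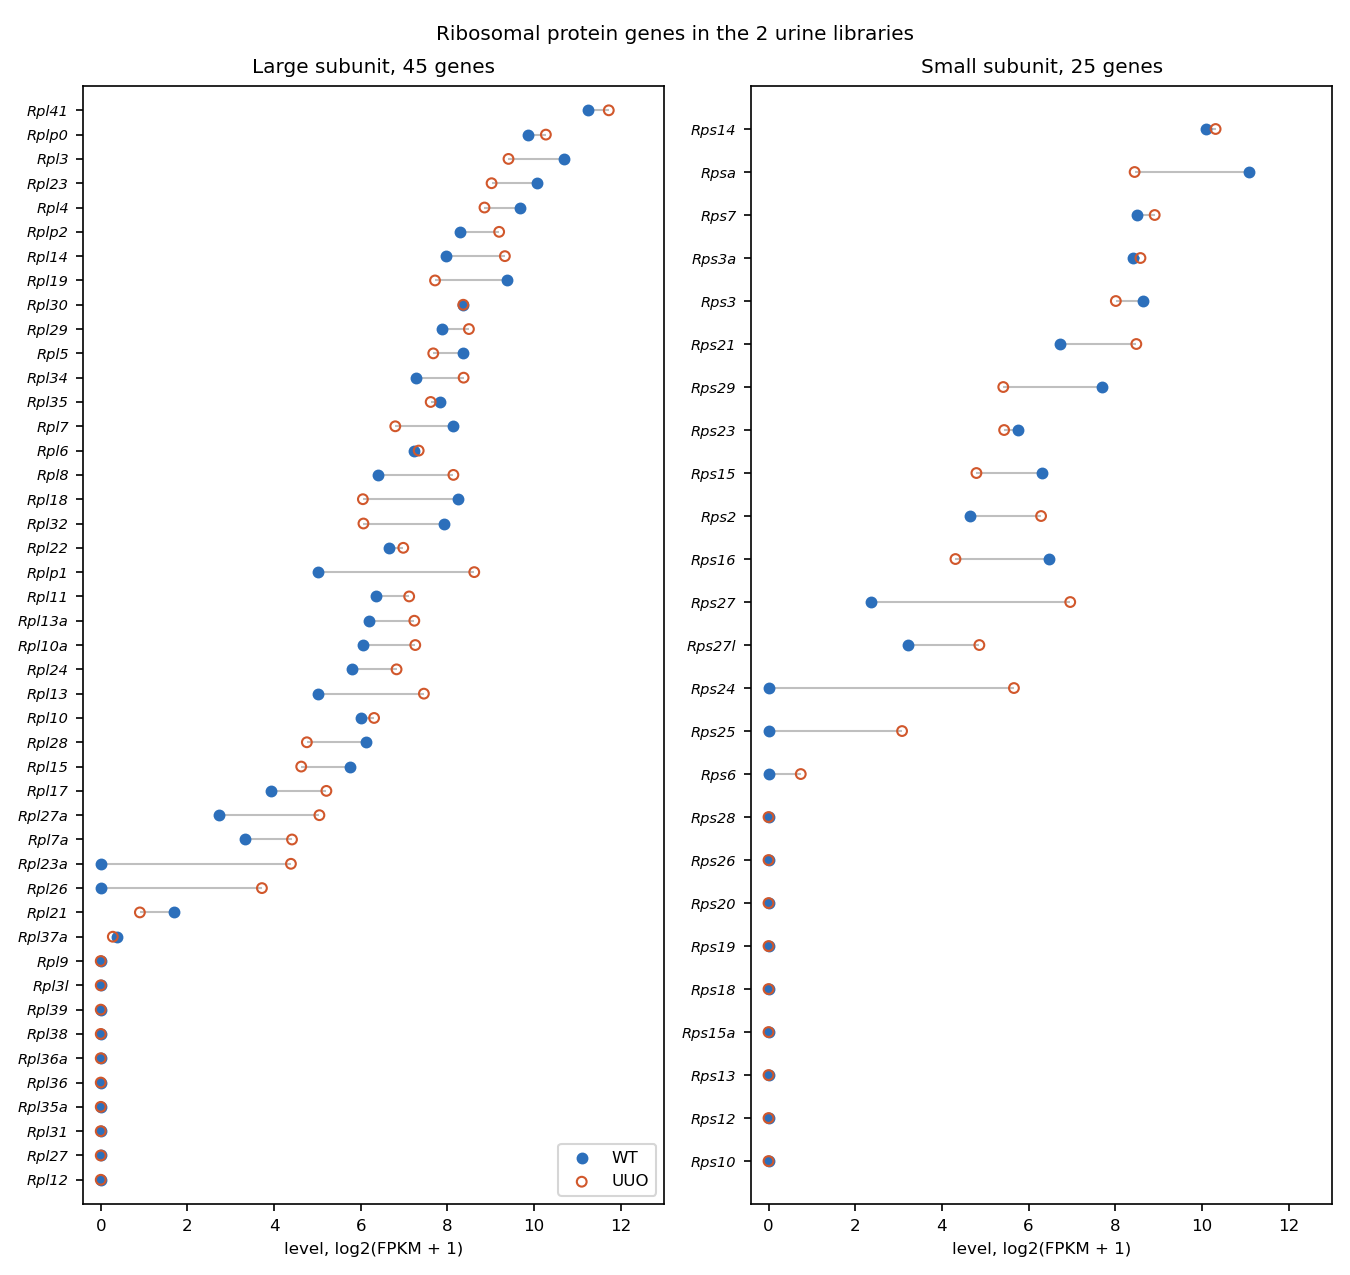
Level of 70 of the 75 ribosomal protein genes in log2(FPKM + 1), with filled points for WT and open points for UUO urine and a line joining them; 45 large-subunit genes are on the left and 25 small-subunit genes on the right, ordered by mean level. Rpl41 is the highest gene, at 2418 FPKM in WT and 3375 in UUO urine, and 19 genes sit at 0 in both libraries.

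Members fell into those that were well detected and those listed at 0, with few between. In UUO urine 53 of 75 members had an FPKM of 5 or more, 19 were listed at 0 and only 3 lay between. For all protein-coding genes the shares were 36.7%, 25.1% and 38.3%. In WT urine 46 members had 5 or more, 24 were listed at 0 and 5 lay between, and the shares over all genes were 40.4%, 49.8% and 9.74%. The class above 0 and under 5 thus held 4% of members for UUO, far under the 38.3% of all genes. For WT it held 6.67%, near the 9.74% of all genes, so there the split was not particular to the members.

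**Figure D2:**
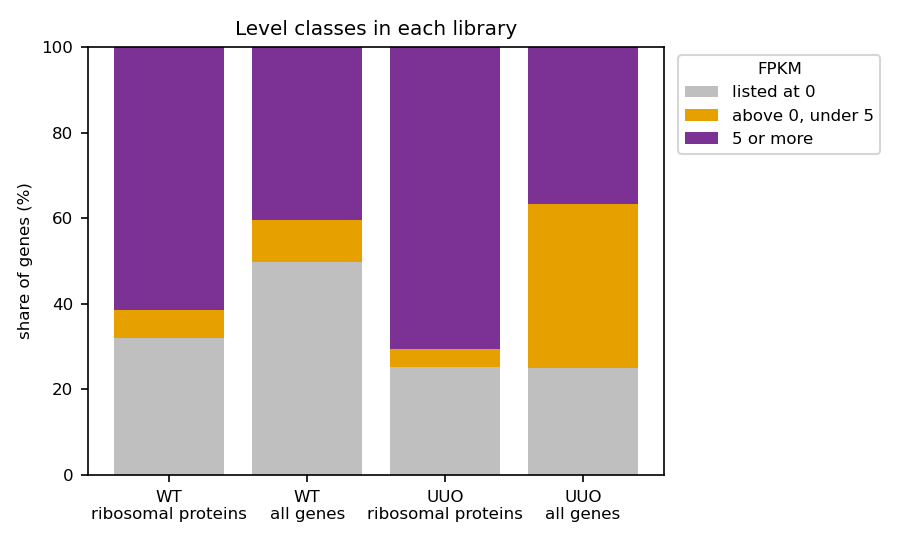
Share of genes, in percent, listed at 0, above 0 and under 5, and at 5 FPKM or more, for the ribosomal protein genes and for all protein-coding genes in each library. Ribosomal protein genes have 70.7% at 5 or more in UUO urine, against 36.7% of all genes, and 4% in the middle class, against 38.3%. In WT urine the middle class holds 6.67% of them and 9.74% of all genes.

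The 19 members listed at 0 in both libraries made up 25.3% of members, against 24.0% of all protein-coding genes, a share near the background. They numbered 10 of the large subunit (Rpl9, Rpl12, Rpl27, Rpl31, Rpl35a, Rpl36, Rpl36a, Rpl38, Rpl39 and Rpl3l) and 9 of the small subunit (Rps10, Rps12, Rps13, Rps15a, Rps18, Rps19, Rps20, Rps26 and Rps28). Most of these proteins are core parts of every ribosome, so a listed 0 can be a failed estimate and is not read as absence of the mRNA. Rpl3l, the muscle and heart relative of Rpl3, is the exception in this list, as it is known to be restricted in tissue. All 19 carried the status word NOTEST in the table, as did Rps6, at 0 in WT and 0.675 in UUO urine. The word therefore does not tell a failed estimate from a true 0. At 11 of the 19, other features with the same listed locus were above 0 in a library, and at 6 the sum over the locus reached 5 or more in either. At Rps10 the locus sum was 25.4 in WT and 70.6 in UUO urine, over 15 features on 102640 bp. At Rpl31 it was 7.98 and 26.1, over 14 features on 118851 bp. At Rpl27 it was 0 and 30.5, over 3 features on 466 bp. Such sums can come from other genes in the listed locus, so they do not show that the member's own mRNA was present. The other 8 were alone at their locus, so their locus sum could only repeat their own listed 0.

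A further 5 members (6.67%) had a listed 0 in the WT library alone, against 25.9% of all genes. The opposite, above 0 in WT alone, was seen for 0 members and 1.12% of all genes. Of the 5, Rps24 of the small subunit (chromosome 16, 752353 to 757011) was the highest, at 49.6 in UUO urine. Rpl23a, which lies near the exit of the peptide tunnel, was at 19.9 and Rpl26, a translational regulator of p53, at 12.2. Rps25, needed by some viral internal ribosome entry sites, was at 7.46. Rps6, the classic target of S6 kinase, was at 0.675, a level under 3 fragments on a transcript of 500 bases. No fold is given for these genes, because their WT value is listed at 0. Summed over the listed locus, WT urine held 4.98 at Rpl23a and 2.61 at Rps25, while the loci of Rps24 and Rpl26 were at 0. Rps6 was alone at its locus, so its sum was its own listed 0.

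Where the table places the members was compared with the gene order in RefSeq. For each gene the 5 nearest genes on either side in the table were matched with the 5 on either side in GRCr8, without use of coordinates. None of the 10 neighbours was shared for 34 of 75 members (45.3%), against 1.24% of all protein-coding genes. Of these 34, 22 had a listed locus shorter than 1000 bp. Among the 41 members with a shared neighbour, 1 did. Rps27, for example, was listed on chromosome 12 from 33660609 to 33661294 but lies on chromosome 2 in GRCr8. Rpl13 was listed on chromosome 8 from 6737497 to 6738219 but lies on chromosome 19 in GRCr8. Both were alone at their locus and had no shared neighbour. Rplp1, Rps14, Rps7 and Rps3a, also without one, were likewise listed on another chromosome than in GRCr8. The chromosome alone does not settle this, as Rpl10, with 9 shared neighbours, was listed on chromosome 1 and lies on X. Mitochondrial ribosomal proteins lacked a shared neighbour in 2.86% and translation factors in 6.45%. Reads that fit more than 1 copy can be divided or misplaced, so the FPKM of these members is uncertain. The listed value may not be that of the gene itself.

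**Figure D3:**
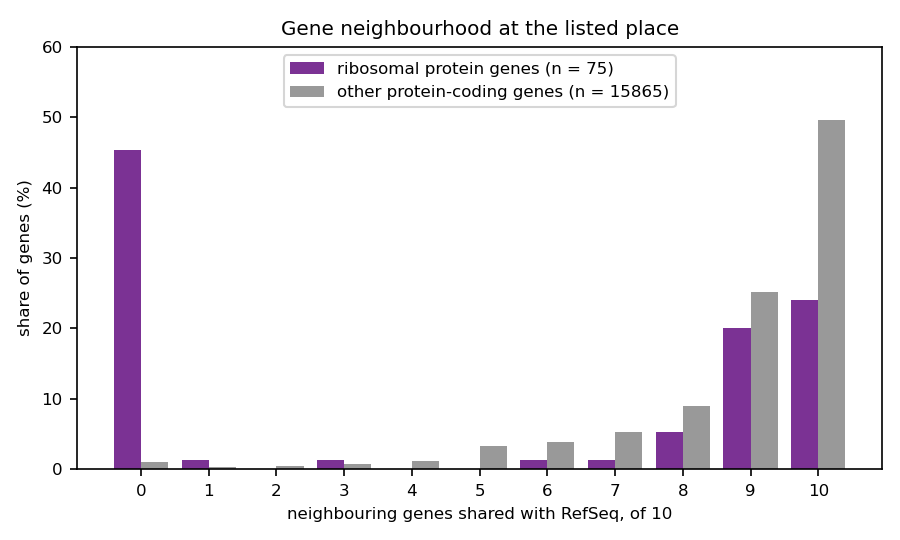
Share of genes, in percent, by how many of the 10 nearest genes in the table are also among the 10 nearest in RefSeq, for the ribosomal protein genes and the other protein-coding genes. The ribosomal protein genes split into 45.3% with none shared and a second group at 8 to 10 shared, where most other genes lie.

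Listed zeros were about as frequent in both classes of members for UUO. In UUO urine 9 of these 34 (26.5%) were at 0, against 10 of the 41 others (24.4%). In WT urine the numbers were 9 (26.5%) and 15 (36.6%), so all 5 members at 0 in WT alone had a shared neighbour. Without a shared neighbour the median FPKM was 31.1 for WT and 71.4 for UUO, and with one 55.0 and 41.7. With the values as deposited, the order of these medians was thus opposite in these classes of members. Member by member, the median log2(FPKM + 1) difference, UUO minus WT, was 0.14 without a shared neighbour and 0.00 with one. With UUO urine rescaled by the median ratio of genes, described below, these were 1.07 and 0.24, so the direction was then the same.

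UUO and WT urine were then compared member by member on the log2(FPKM + 1) scale, on which low genes show less than their full change. A difference of 1 or more, about 2-fold, was counted. Of the 75 members 21 (28.0%) were higher in UUO urine, against 15.8% of all protein-coding genes, and 12 (16%) were lower, against 22.5%. The distance from the background depended on how low values were treated. With a pseudocount of 0.1 in place of 1, 29.3% of members and 28.5% of all genes were higher, so the shares were near each other, and with a pseudocount of 10 they were 21.3% and 2.30%. With FPKM summed over the listed locus, 32.0% of members and 24.4% of all genes were higher, and the member median lay 0.02 above that of all genes. The other 42 were within the limit, the 19 at 0 in both included. After rescaling UUO urine by the median ratio of genes, a factor of 1.91, 34 members (45.3%) were higher and 4 (5.33%) lower, with 27.0% and 9.91% over all genes. Over all 75 members the median difference was 0.00, the value of the members at 0 in both, and it was 0.00 over all protein-coding genes too. Over the 51 members above 0 in both libraries it was 0.23, while 7820 protein-coding genes above 0 in both had a median of -0.83. After the rescaling these medians were 1.16 and 0.00.

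**Figure D4:**
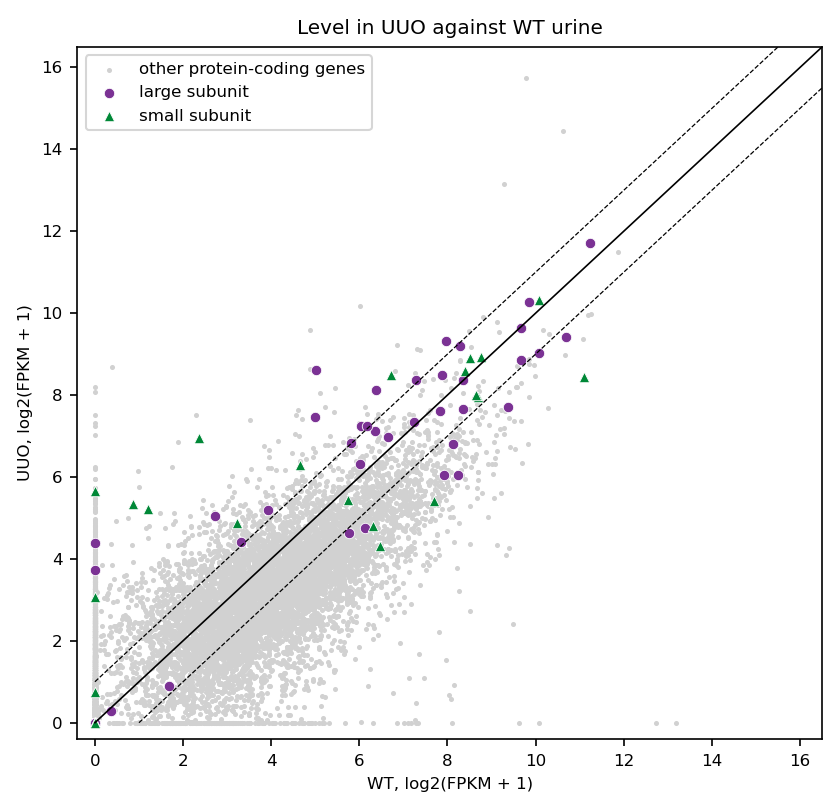
Level in UUO against WT urine, log2(FPKM + 1) on both axes, for large-subunit genes (circles), small-subunit genes (triangles) and other protein-coding genes (grey); the solid line marks equal levels and the dashed lines a difference of 1. Of the 75 members 51 are above 0 in both libraries, 19 lie together at the origin, and 5 lie on the left edge, where WT is listed at 0.

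Other genes of the translation machinery were, as deposited, more often lower than higher in UUO urine. Of 70 mitochondrial ribosomal proteins 8 were higher and 29 (41.4%) lower as deposited, but 12 were higher and 7 lower after rescaling by the median ratio. Of 62 translation factors, which start and drive protein synthesis, 5 were higher and 26 (41.9%) lower, and 10 higher and 9 lower after rescaling. These shares have to be read against the 43.8% lower among all protein-coding genes above 0 in both libraries, since 59 of the mitochondrial genes and 55 of the factors were above 0 in both. Their medians over those genes, -0.99 and -0.95, were near the -0.83 of all genes. Other mRNAs known for a TOP tract gave 1 higher and 7 lower of 18, and 2 higher and 1 lower after rescaling. Of 27 ribosome biogenesis genes 4 were higher and 16 lower, with a median of -1.33, and after rescaling 5 were higher and 6 lower, with a median of -0.54. The elongation factor Eef2 stood at 2324 in WT and 999 in UUO urine. Rack1, a scaffold on the small subunit, stood at 409 and 251. Nucleolin, Ncl, which acts in the nucleolus, stood at 54.5 and 12.5. Of these 3 genes Eef2 and Ncl passed the limit. Fau, whose product joins a ubiquitin-like protein to a ribosomal protein but whose name the rule does not take, was within the limit, at 30.8 and 27.2.

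**Figure D5:**
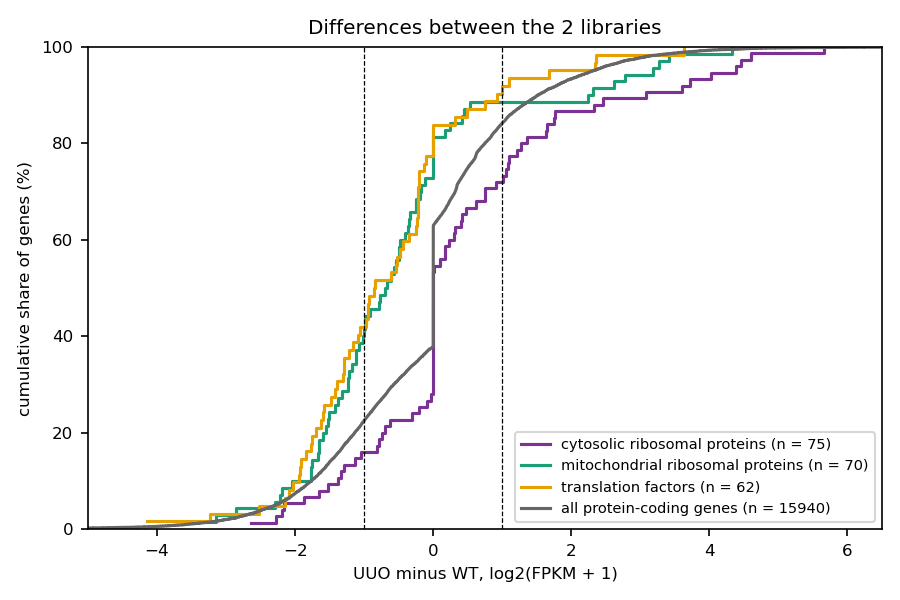
Cumulative share of genes, in percent, by the UUO minus WT difference in log2(FPKM + 1), for cytosolic ribosomal proteins, mitochondrial ribosomal proteins, translation factors and all protein-coding genes; dashed lines mark a difference of 1 in size. The curve of the cytosolic ribosomal proteins lies to the right, with 28.0% of its 75 genes above 1, and with the values as deposited those of the other translation genes lie to the left over most of the range.

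Of 46 large-subunit genes 13 (28.3%) were higher and 8 (17.4%) lower in UUO urine, or 21 and 1 after rescaling by the median ratio. Of 29 small-subunit genes 8 (27.6%) were higher and 4 (13.8%) lower, or 13 and 3 after rescaling. As shares of each subunit the higher genes were thus close under both scalings. Among members above 0 in both libraries the median difference was 0.31 over 34 large-subunit and 0.18 over 17 small-subunit genes. Zeros were more frequent in the small subunit, with 12 of 29 (41.4%) against 12 of 46 (26.1%) in WT and 9 (31.0%) against 10 (21.7%) in UUO urine. Over all protein-coding genes 49.8% were at 0 in WT and 25.1% in UUO urine, so both subunits were below the background in WT, and in UUO urine the small subunit was above it and the large below it. In WT urine the members above 0 had a median FPKM of 151.9 in the large and 105 in the small subunit. In UUO urine these medians were 156 and 63.4. With the members at 0 included, the medians were 67.0 and 4.13 in WT and 111.2 and 36.3 in UUO urine.

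Summed FPKM of the large subunit was 2.06 times that of the small subunit in WT urine and 2.80 times in UUO urine. This order rested on 1 gene. Rpsa alone held 37.7% of the small-subunit sum in WT urine, and without it the ratio was 3.30 in WT and 3.04 in UUO urine. Sums of single members weigh heavily here, as Rpl41 held 20.4% of the large-subunit sum in WT and 27.9% in UUO urine.

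Among the large-subunit genes above 0 in both libraries, the greatest difference toward UUO urine was in Rplp1. Rplp1, an acidic stalk protein that helps recruit elongation factors, stood at 31.2 in WT and 392 in UUO urine, a log2 difference of 3.61. Its listed locus on chromosome 17, 11147131 to 11548903, was shared by 33 features, and the locus sum was 97.2 and 479. The other stalk proteins differed less, with Rplp2 at 311 and 584 and Rplp0, the base of the stalk, at 925 and 1233, both within the limit. Rpl13 stood at 31.0 and 174.5, a difference of 2.45. Rpl27a stood at 5.59 and 32.0, a difference of 2.32. Rpl8, close to the site of peptide bond formation, stood at 82.7 and 280.3, and Rpl14 at 249 and 639.8, differences of 1.75 and 1.36. The other large-subunit genes past the limit were Rpl10a, Rpl13a, Rpl17, Rpl24, Rpl34 and Rpl7a, between 1.02 and 1.27, besides the 2 listed at 0 in WT. Of the genes in this paragraph, Rplp1, Rplp2, Rpl13, Rpl8, Rpl10a, Rpl13a, Rpl17, Rpl34 and Rpl7a had no shared neighbour. Their FPKM is uncertain for the reason given above.

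Toward WT urine the greatest large-subunit difference was in Rpl18, at 299.8 in WT and 65.2 in UUO urine, a log2 difference of -2.18. Its status word was LOWDATA, as for Rpl21, Rpl37a, Rps14 and Rps15, and 50 of the 75 members had the word OK. Rpl32 followed at 242 and 65.8, and Rpl19 at 659 and 209, with differences of -1.87 and -1.65. Rpl28 stood at 69.0 and 26.0 and Rpl7 at 279 and 110.1. Of these, Rpl18, Rpl32 and Rpl7 had no shared neighbour, so their FPKM is uncertain. Abundant core proteins were among the lower genes too. Rpl3, which shapes the peptidyl transferase centre, stood at 1656 and 678, a difference of -1.29, and Rpl23 at 1071 and 517, a difference of -1.05. Rpl15 stood at 53.1 and 23.7, but over its locus at 53.1 and 58.0, so that this difference was lost when the locus was summed. After rescaling by the median ratio only Rpl18 of these 8 genes was still past the limit. Rpl30, at 327 and 328, was almost level between the libraries as deposited, but at a log2 difference of 0.94 after that rescaling.

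In the small subunit the genes above 0 in both libraries that lay higher in UUO urine included Rps27, which had a low WT value. Rps27 stood at 4.13 in WT and 123.5 in UUO urine, a log2 difference of 4.60. Rps21 was well detected in both, at 105 and 357, a difference of 1.76. Rps27l, a p53-responsive relative of Rps27, stood at 8.29 and 28.1, a difference of 1.65, in the same direction as Rps27. Rps2, near the mRNA entry, stood at 24.1 and 77.1, but over its locus at 161.6 and 171, so that this difference fell under the limit when the locus was summed. Rps27, Rps21 and Rps2 had no shared neighbour, so their FPKM is uncertain.

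The greatest difference toward WT urine among all members was in Rpsa, the laminin receptor protein of the small subunit (chromosome 8, 128006794 to 128011141), at 2178 in WT and 348 in UUO urine, a log2 difference of -2.64. Rps29 stood at 206 and 41.7, a difference of -2.28, and Rps16 at 88.2 and 18.9, a difference of -2.17. Rps15 stood at 78.7 and 26.8, a difference of -1.52. After rescaling by the median ratio, Rpsa, Rps29, Rps16 and Rpl18 were the 4 members still lower by the limit, at -1.71, -1.36, -1.27 and -1.26. Other abundant small-subunit genes were within the limit. Rps14 stood at 1086 and 1272, Rps7 at 362 and 479.8 and Rps3a at 338 and 382. Of the genes in this paragraph, Rps15, Rps14, Rps7 and Rps3a had no shared neighbour, so their FPKM is uncertain.

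For members alone at a listed locus under 1000 bp the number of fragments could be estimated, on the assumption that the transcript is as long as the locus. There were 18 such members, 11 of them above 0 in both libraries. All 18 lacked a shared neighbour, so reads divided or misplaced between copies make these numbers uncertain too. Rps27 came to about 5 fragments in WT and 153 in UUO urine, a ratio of 29.9 with an exact 95% interval from 12.6 to 93.5. Rps21 came to about 116 and 413, a ratio of 3.41 (2.77 to 4.23), and Rpl13 to about 39 and 232, a ratio of 5.63 (3.99 to 8.11). Rpl7 was lower, at about 441 and 188, a ratio of 0.394 (0.330 to 0.468). Rpl30 came to about 245 in each library, a ratio of 1.0 (0.837 to 1.2), so as deposited no difference was detectable at this depth. After rescaling by the median ratio its log2 difference was 0.94, and that of Rpl7 was -0.41. All ratios and intervals here hold for the deposited scaling and shift with it. These intervals cover counting error only. They say nothing of the spread between rats, and reads copied by PCR are not independent.

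Members high in one library were mostly high in the other. Across the 51 members above 0 in both, the log2(FPKM + 1) levels gave a Pearson's r of 0.78 and a Spearman's rho of 0.78. They were 0.85 and 0.77 over 34 large-subunit genes and 0.68 and 0.71 over 17 small-subunit genes. Over 7820 protein-coding genes r was 0.71 and rho 0.69. These are correlations across genes, which share 2 libraries, their lengths and the read division between copies, and they are no replicate check. The spread among members was wide in both libraries, with an SD of log2(FPKM) of 2.94 over 51 genes in WT and 2.64 over 56 genes in UUO urine. The middle of the range ran from an FPKM of 52.9 to 349.9 for WT and from 36.2 to 358 for UUO, as the lower and upper quartiles of the members above 0.

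Members were also divided by their roles in evolution and disease, to be read against the 15.8% higher and 22.5% lower of all protein-coding genes, or 27.0% and 9.91% after rescaling by the median ratio. Of 32 members with a counterpart in bacterial ribosomes, 8 were higher and 7 lower in UUO urine, or 13 and 3 after rescaling by the median ratio. Of the 43 others, 13 were higher and 5 lower, or 21 and 1 after rescaling. Of 11 genes mutated in Diamond-Blackfan anaemia, a failure of red-cell production, 3 were higher, Rps24 and Rpl26 among them, and 1 (Rpl15) was lower. Rps19, the gene most often mutated in that disease, was at 0 in both libraries. After rescaling 5 of the 11 were higher and 0 lower. Rpl5 and Rpl11, which bind Mdm2, stood at 328 and 203 and at 81.2 and 138, both within the limit.

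Markers of other cells moved between the libraries as well. All 11 red-cell genes were higher in UUO urine, and they summed to an FPKM of 3223 for WT and 89035 for UUO, with Ank1 and Epb42 listed at 0 in WT. Of 10 leukocyte genes 7 were higher, with sums of 77.5 and 206. Cd3e was at 0 in both libraries, and in WT urine only Cd74 and Lyz2 were above 0. Of 10 tubule genes 1 was higher and 4 lower, with sums of 240.3 and 160.1. Of 7 urothelium genes 2 were higher and 2 lower, or 4 and 1 after rescaling, with sums of 1363 and 1209, and Krt5 was at 0 in WT. Genes known from the rat prostate were looked up with their values in view. Andpro stood at 792 in WT and Sbp, the prostatic spermine-binding protein, at 159.9, and both were listed at 0 in UUO urine. Pbsn, Msmb and Tgm4 were at 0 in both libraries. The part of these cells in the ribosomal protein differences was not tested.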

How the data were processed

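RNA of 2 urine libraries, 1 WT and 1 UUO, was available as 1 table of 113011 features. The deposited values are FPKM, computed by the authors. The total used to scale each library is not given in the sources used here. The submitters' processing notes name Bowtie2 2.0.6, TopHat2 2.0.9, Cufflinks 2.1.1 and Cuffdiff 2.1.1 and the build rn5, to which the listed loci are credited. According to the study's methods, adapter, poly-N and low-quality reads were removed, and transcripts were assembled with Cufflinks and Scripture. A listed locus merges overlapping features, and 55 of 75 members shared theirs. The table's status words were read as deposited by the authors (other columns of the authors' own comparison, with log2 ratios, test statistics, p-values and q-values, were not used). Which strand the counting used is not given for urine.

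Symbols came from RefSeq (GRCr8), which matched 16329 of 16484 number-only IDs (99.1%). With 1 library per group no test was made. Differences were log2(FPKM + 1), counted at 1 or more, over all members with no filter. Of the members, 54 had an FPKM of at least 1 in either library. Normalising totals were fitted so that assembled features alone at a locus of 400 to 1200 bp held whole fragments. In WT 98.9% of 88 values and in UUO 99.9% of 3411 values under 20 fragments came within 0.1 of a whole number. Intervals of ratios were exact binomial (Clopper-Pearson) from rounded fragments. The named genes were the 5 highest per subunit, the 5 greatest differences in each direction per subunit among members above 0 in both libraries, those listed at 0, the stalk proteins, Rpsa, Fau and genes ending in l with their parent gene. Some genes that this rule names are not reported here, and they enter the counts only. Other genes in the text were picked with values in view. The members, lists and rules were chosen with earlier results of these data known. The neighbour comparison and the search for pyrimidine runs were added after the data were seen. Alternatives covered pseudocount, scaling, filters, locus sums and the symbol rule. Scripts were tested on simulated data (Python 3.11.15, numpy 2.4.6, pandas 2.3.3, scipy 1.17.1, matplotlib 3.10.9).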

Additional observations from a re-analysis of the deposited data

How the results depend on the processing

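No paired analysis was possible because there is no second library in either group. Counts within 1.5 times of the reported value, log2 values within 0.5, percentiles within 10 and correlations within 0.1 were taken as the same, and 56 of 73 alternatives met this. By rescaling to equal sums, the median ratio and the 75th percentile, 6, 4 and 5 members were lower in UUO urine, and the large minus small difference of medians was 0.51 in each, against 0.00. The median ratio also gave 34 higher members and a median of 0.61. Each rescaling raises all UUO values by 1 factor. Of the members past the limit, 0 took the opposite direction in any of the 3 rescalings. Factors of 1.54 to 1.91 are too small to turn a difference of that size, so this outcome was fixed in advance. Among all members, 8 took the opposite direction in a rescaling. The 41 members with a shared neighbour held 9 of the higher genes, and the 34 without held 12 higher and 4 lower, a division added after seeing the data that counts fewer genes. With FPKM summed per locus, 8 members were at 0 in UUO urine and 8 in both. Of 33 members past the limit 2 then fell under it, 0 passed it in the opposite direction, and 6 others passed it. Rpl15, which fell under it, changed sign, from -1.13 to 0.12. Taken over all features, which make a larger sum, the members held 2.24% for WT and 3.21% for UUO. With the members at 0 included, Pearson's r was 0.90 and Spearman's rho 0.91. Pseudocounts of 0.1 and 10 gave 22 and 16 higher members and 13 and 11 lower, but the share of all genes that was higher went from 15.8% to 28.5% and 2.30%, and the share lower from 22.5% to 24.5% and 11.1%. Thus 14.7% of members were lower at a pseudocount of 10, above that background, and at 0.1 the higher members were near theirs. Depth limits the low values, since a listed 0 allows up to 3 fragments by counting error alone.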

Other observations

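Entries named like ribosomal protein genes that the rule left out numbered 14, of which RefSeq lists 7 as pseudogenes. The highest was Rps4x-ps9, a pseudogene named for Rps4x, at 282 for WT and 505 for UUO in FPKM, while no member carried the symbol Rps4x. Rpl36al1 stood at 314 in WT and 71.0 in UUO urine, a log2 difference of -2.13. Rpl22l1, a relative of Rpl22, and Rpl39l1, a relative of Rpl39, were listed at 0 in WT and stood at 16.8 and 4.92 in UUO urine. Rpl22 itself stood at 100.2 and 125, and Rpl39 at 0 in both libraries. These entries were chosen after their values were seen, and reads shared with near-identical copies make each value uncertain.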
